A study of Homo sapiens with 3 samples.

Results

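The D-type cyclins, their kinase CDK4 and the inhibitors that hold these kinases back were followed in single prostate cancer cells under the antiandrogen enzalutamide (ENZ). The 10 genes were taken by name: the Cip/Kip inhibitors CDKN1A, CDKN1B and CDKN1C, the INK4 inhibitors CDKN2A, CDKN2C and CDKN2D, the D-type cyclins CCND1, CCND2 and CCND3, and CDK4. Of the 33423 genes with a row in the 3 count tables, 9 were members. CCND2 had no row in any of them and was not analysed here. The main observations were as follows. CCND1 was lower in ENZ-treated than in vehicle-treated VCaP cells within each range of cell cycle transcripts. CDKN2D was higher in cycling cells of all 3 libraries, on few UMIs in ENZ-treated VCaP cells. CDKN1A, nearly level between the VCaP libraries as a whole, was higher after ENZ among cells with few cell cycle transcripts.

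Drop-seq, which captures polyadenylated RNA of single cells on barcoded beads and counts molecules by unique molecular identifiers (UMIs), was run on 1 library per group. VCaP parental cells received the vehicle, 0.1% DMSO, for 48 h. VCaP–ENZ48 cells received 10 µM enzalutamide for 48 h, and LNCaP–ENZ168 cells received 10 µM enzalutamide for 168 h. Both are established human prostate cancer lines that carry the androgen receptor and are labelled as sensitive to the drug, VCaP grown in DMEM and LNCaP in RPMI, both with 10% serum. LNCaP cells without the drug were not analysed here, and between LNCaP–ENZ168 and VCaP–ENZ48 line, exposure time, medium and preparation cannot be told apart. With 1 library per group there was no replicate error and no test was made. All intervals are exact 95% intervals that cover counting error only, and cells were not used as replicates.

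The kept cells numbered 997, 947 and 944 in VCaP parental, VCaP–ENZ48 and LNCaP–ENZ168, with 19515202, 14301287 and 6313283 UMIs and a median of 17817, 11224 and 5389 UMIs per cell. The libraries shared 0 cell barcodes, and 86%, 86.9% and 21.2% of the deposited barcodes ended in the letter N in place of a base. The reason for this letter is not given in the sources used here. All 10 prostate epithelial markers were present in each library. ERG, which VCaP cells express from a gene fusion, stood at 105 and 57.1 CPM (UMIs per 1000000 UMIs) in the VCaP libraries and at 0 in LNCaP–ENZ168, where 0 UMIs allow a level of up to 0.475 CPM. The leukocyte marker CD3E and the fibroblast marker COL1A2 had no row and were not measured. The other leukocyte and endothelial markers had 3 UMIs or fewer each, except VWF with 13 UMIs in LNCaP–ENZ168. The fibroblast markers with a row summed to 21.5, 26.4 and 1.90 CPM, nearly all LUM in VCaP, and their part in the results was not tested. No cell type in these cultures lacks the genes described, so the share of cells that free RNA alone would mark was not measured.

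In a dividing cell, D-type cyclins bind CDK4 or its close relative CDK6, and the complexes phosphorylate the retinoblastoma protein, which releases E2F factors and lets the cell enter S phase. INK4 proteins bind the kinase itself and block its pairing with cyclin, whereas Cip/Kip proteins bind assembled cyclin and CDK complexes and mainly restrain those that contain CDK2. In prostate cancer cells androgen receptor signaling is known to feed into this switch, and CDKN1A is a classical target of p53.

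CCND1, which encodes cyclin D1, was the most abundant of the 9 genes in every library in CPM. UMIs are counted at the 3′ end and are not scaled by length, so levels of different genes are given on that scale only. CCND1 stood at 590.9 CPM in VCaP parental (95% interval 580.1 to 601.8), 344.6 CPM in VCaP–ENZ48 (335.0 to 354.3) and 454.4 CPM in LNCaP–ENZ168 (438.0 to 471.4). It had more UMIs than 98.9 to 99.2% of the detected genes and supplied 99.0%, 98.1% and 95.3% of the D-type cyclin UMIs in the same order. CCND3, the other D-type cyclin measured, had a level of 5.69 CPM in VCaP parental, 6.57 CPM in VCaP–ENZ48 and 22.7 CPM in LNCaP–ENZ168, where its interval (19.1 to 26.7) lay above both VCaP intervals. CDK4, the catalytic partner, stood at 219, 158 and 183 CPM, with 3 intervals that did not overlap (212 to 226, 152 to 165 and 173 to 194).

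Among the Cip/Kip genes, CDKN1A, which encodes p21, stood at 58.1 CPM in VCaP parental (54.8 to 61.6), 51.3 CPM in VCaP–ENZ48 (47.7 to 55.2) and 74.8 CPM in LNCaP–ENZ168 (68.2 to 81.8). CDKN1B, which encodes p27, stood at 43.5, 37.2 and 111.8 CPM in the same order, and its LNCaP–ENZ168 interval (103.7 to 120.4) lay far above the VCaP intervals. CDKN1C, which encodes the imprinted inhibitor p57, was the least abundant Cip/Kip gene with 41, 57 and 10 UMIs, or 2.10, 3.99 and 1.58 CPM. The leading inhibitor thus differed between the libraries. CDKN1A made up 41.2% and 45.6% of all inhibitor UMIs in the VCaP libraries and CDKN1B 30.8% and 33.02%, whereas in LNCaP–ENZ168 CDKN1B made up 46.2% (43.7 to 48.7) and CDKN1A 30.9% (28.6 to 33.3).

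The INK4 genes were lower and summed to 37.5, 20.1 and 54.0 CPM. CDKN2A, whose locus encodes both p16 and ARF from different first exons that gene counts do not separate, stood at 10.1 CPM in VCaP parental, 10.98 CPM in VCaP–ENZ48 and 26.8 CPM in LNCaP–ENZ168. CDKN2C, encoding p18, stood at 9.68, 5.94 and 16.5 CPM. CDKN2D, encoding p19, stood at 17.6 CPM in VCaP parental (15.8 to 19.6), 3.22 CPM in VCaP–ENZ48 (2.35 to 4.29) and 10.8 CPM in LNCaP–ENZ168 (8.36 to 13.7). It was the leading INK4 gene in VCaP parental, with 47.1% of the INK4 UMIs, and the smallest in VCaP–ENZ48, with 16.0%, where CDKN2A held 54.5%.

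**Figure D1:**
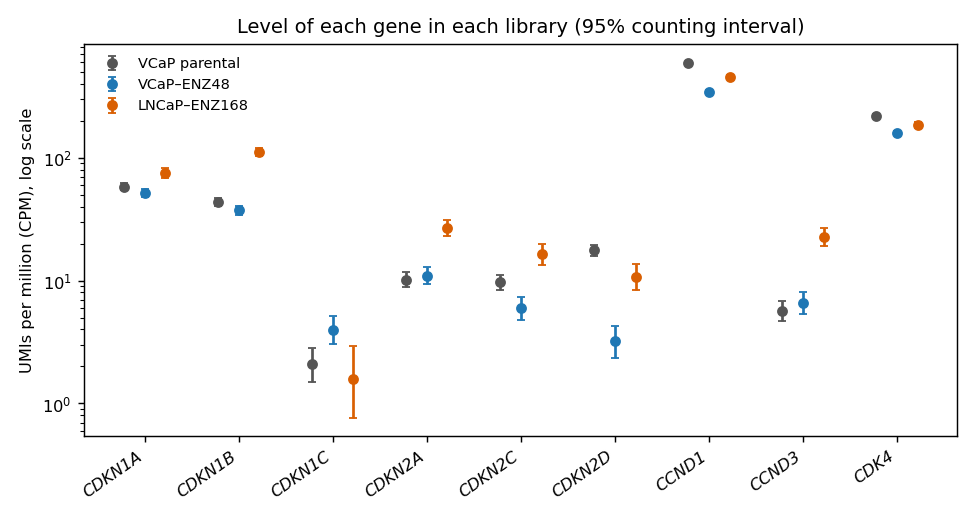
Level of each gene in CPM (log axis) in VCaP parental (grey), VCaP–ENZ48 (blue) and LNCaP–ENZ168 (orange). Points are 1 library each and bars are 95% counting intervals. CCND1 is highest throughout, CDKN2D is lowest in VCaP–ENZ48 at 3.22 CPM, and CDKN1B is highest in LNCaP–ENZ168 at 111.8 CPM.

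The genes lie on several chromosomes of GRCh38 (Gencode coordinates). CDKN1A occupies chr6:36676460-36687337 and CCND3 chr6:41934934-42050357. CDKN1B occupies chr12:12685498-12722369 and CDK4 chr12:57747727-57756013, whereas CCND1 occupies chr11:69641156-69654474 and CDKN1C chr11:2883213-2885775. CDKN2A lies at chr9:21967752-21995301, CDKN2C at chr1:50960745-50974634 and CDKN2D at chr19:10566460-10569059. On the opposite strand, CDKN1B overlaps GPR19, CDKN2A overlaps CDKN2B-AS1, CCND1 overlaps LTO1, and CDK4 overlaps TSPAN31 and MARCHF9. Whether the counting used strand is not given in the sources used here, so for these 4 members reads of the overlapping part may belong to either gene.

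The first comparison asked what short exposure to ENZ did within VCaP. CDKN2D was the only member whose level in VCaP–ENZ48 was at least 2-fold away from the median of all genes tested. Its log2 ratio was -2.14, and -2.08 after subtraction of the median ratio, -0.066, over 7729 genes that averaged 10 CPM or more. That placed it below all but 2.02% of these genes. The ratios carry 1 CPM on both sides, and the counting interval of the CDKN2D ratio without it was -2.93 to -2.01. Of the 6 members tested 1 was called lower and 0 higher, against a background of 6.03% of all genes called lower and 8.97% called higher, and the median of their centred ratios was -0.28. CCND1 had a centred log2 ratio of -0.71 (-0.76 to -0.66), lower than that of all but 11.5% of genes, and CDK4 one of -0.40 (-0.48 to -0.33). CDKN1A (-0.11), CDKN1B (-0.15) and CDKN2A (0.17) lay closer to the median of all genes. CDKN1C, CDKN2C and CCND3 were under the minimum, and of these CDKN2C had a lower CPM in VCaP–ENZ48 and CDKN1C a higher one. The inhibitors together stood at 141 and 113 CPM and the D-type cyclins together at 597 and 351 CPM, a log2 ratio of -0.33 (-0.42 to -0.24) against -0.76 (-0.81 to -0.72).

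Set against VCaP–ENZ48, LNCaP–ENZ168 had a median log2 ratio of 0.655 over 8854 genes, and member ratios were centred on it. After centring, 0 of 7 members tested were at least 2-fold away in either direction, against a background of 18.6% of genes called lower and 15.2% called higher. CCND3, at 0.99, and CDKN1B, at 0.91, lay just inside the limit, and the median over the members was 0.56. CDKN2A and CDKN2C had centred ratios of 0.56 and 0.68, whereas CDK4 (-0.45), CCND1 (-0.26) and CDKN1A (-0.12) were below the median of all genes. CDKN1C and CDKN2D were under the minimum, and CDKN1C, on 10 UMIs in LNCaP–ENZ168, had the largest centred ratio of the members, -1.60 (-3.12 to -1.004), whereas CDKN2D had 0.83 (0.53 to 1.66). Without centring 4 of the 7 were at least 2-fold higher in LNCaP–ENZ168, and CCND1 and CDK4 had ratios of 0.40 and 0.21. The ratio of CDKN1B to CCND1 transcripts was 0.0736 UMIs per UMI in VCaP parental, 0.108 in VCaP–ENZ48 and 0.246 in LNCaP–ENZ168, a value that needs no scaling between libraries.

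To place the members along the cell cycle, each cell was thinned to 2000 UMIs and sorted by its UMIs of 43 S phase and 54 G2M phase genes, none of them a member. Cells with under 10 such UMIs formed a low range, those with 10 to 29 a middle range and those with 30 or more a high range. VCaP parental had 312, 274 and 411 cells in these ranges, VCaP–ENZ48 had 850, 49 and 18, and LNCaP–ENZ168 had 659, 181 and 103. The ranges cut a continuum, and 73 VCaP parental, 47 VCaP–ENZ48 and 137 LNCaP–ENZ168 cells of the low range lay within 2 UMIs of its bound.

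CDKN2D increased along this axis in every library. It stood at 4.28, 9.11 and 32.1 CPM in the low, middle and high range of VCaP parental, at 2.23, 8.92 and 24.6 CPM in VCaP–ENZ48 and at 5.16, 9.91 and 40.7 CPM in LNCaP–ENZ168. The VCaP–ENZ48 values came from only 29, 8 and 9 UMIs, and 3 of the 18 high range cells held 55.6% of the last. The log2 ratio of the high over the low range was 2.65 (2.303 to 3.57), 2.98 (2.20 to 4.58) and 2.76 (2.17 to 3.83), so that the 3 intervals overlapped. In cells called G2M by Seurat it reached 32.9, 26.0 and 42.3 CPM, against 4.05, 2.21 and 5.11 CPM in cells called G1. CDKN2C had a like order in VCaP parental, with 3.21, 5.65 and 16.6 CPM, and a smaller high over low ratio in LNCaP–ENZ168 (0.73, 0.0019 to 1.48).

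CDKN1A differed between the libraries in this respect. In VCaP parental it stood at 18.7 CPM in the low range (15.3 to 22.7), 42.8 CPM in the middle range (37.5 to 48.7) and 94.4 CPM in the high range (87.9 to 101.2). In LNCaP–ENZ168 it stood at 75.7, 71.9 and 74.3 CPM in the same order, a high over low log2 ratio of -0.027 (-0.44 to 0.37) against 2.27 (2.04 to 2.64) in VCaP parental. In that LNCaP–ENZ168 high range 3 of 103 cells held 38.7% of the 62 CDKN1A UMIs. In its middle range 3 of 181 cells held 26.4% of 87, a spread the intervals do not cover. In VCaP–ENZ48 CDKN1A stood at 45.6, 32.3 and 303.2 CPM, but the last value came from 111 UMIs in 18 cells, of which 3 cells held 50.5%. The share of cells with a CDKN1A UMI, averaged over all thinnings, ran the same way: 3.75%, 8.12% and 15.01% from the low to the high range of VCaP parental, and 11.2%, 11.5% and 9.77% in LNCaP–ENZ168.

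CDKN1B was higher in the high range of VCaP parental, at 65.4 CPM (60.01 to 71.1) against 26.4 CPM in the low range. By phase call this step lay in G2M, with 71.6 CPM, since S phase cells had 28.5 CPM and G1 cells 27.4 CPM. In LNCaP–ENZ168 CDKN1B was 109.5 CPM in the low range and 141.4 CPM in the high range, a log2 ratio of 0.37 (0.065 to 0.66). In VCaP–ENZ48 CDKN1B stood at 35.3, 31.2 and 120.2 CPM from low to high. The high over low log2 ratio there was 1.74 (1.29 to 2.21), on 44 UMIs in 18 high range cells. CDK4 was highest in S phase in VCaP parental and LNCaP–ENZ168, at 252 and 283 CPM against 191 and 162 CPM in G1. In VCaP–ENZ48 the highest CDK4 value, 255 CPM (207 to 311), came from 98 UMIs in 26 G2M cells, against 188 CPM (167 to 210) in S phase. In the high range of that library 3 of 18 cells held 45.9% of the 85 CDK4 UMIs, a spread the intervals do not cover.

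The order of CCND1 along the ranges differed between the libraries. In VCaP parental the low and the high range had 594 and 619 CPM, a log2 ratio of 0.059 (-0.0041 to 0.12), and S phase cells were lower, with 531 CPM (515 to 548) against 600 CPM (579 to 621) in G1. In VCaP–ENZ48 it stood at 345, 314 and 423 CPM from low to high, a high over low log2 ratio of 0.30 (0.056 to 0.53). In that high range 3 of 18 cells held 47.1% of the 155 CCND1 UMIs, a spread the interval does not cover. In LNCaP–ENZ168 it was lower in more strongly cycling cells, with 478, 435 and 362 CPM from low to high and a log2 ratio of -0.40 (-0.58 to -0.23). CCND3 ran the opposite way in that library, with 18.8, 23.1 and 41.9 CPM and a log2 ratio of 1.12 (0.54 to 1.75), and in VCaP parental its ratio was 0.42 (-0.22 to 1.27). CDKN2A had high over low log2 ratios of 0.22, 0.027 and 0.41 whose intervals all held 0. By phase call it stood at 39.6 CPM in S phase and 24.3 CPM in G1 of LNCaP–ENZ168, a log2 ratio of 0.68 (0.093 to 1.28), against 0.0055 and -0.023 in VCaP parental and VCaP–ENZ48. CDKN1C had 15 or fewer UMIs in every range except the low range of VCaP–ENZ48, which had 51.

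**Figure D2:**
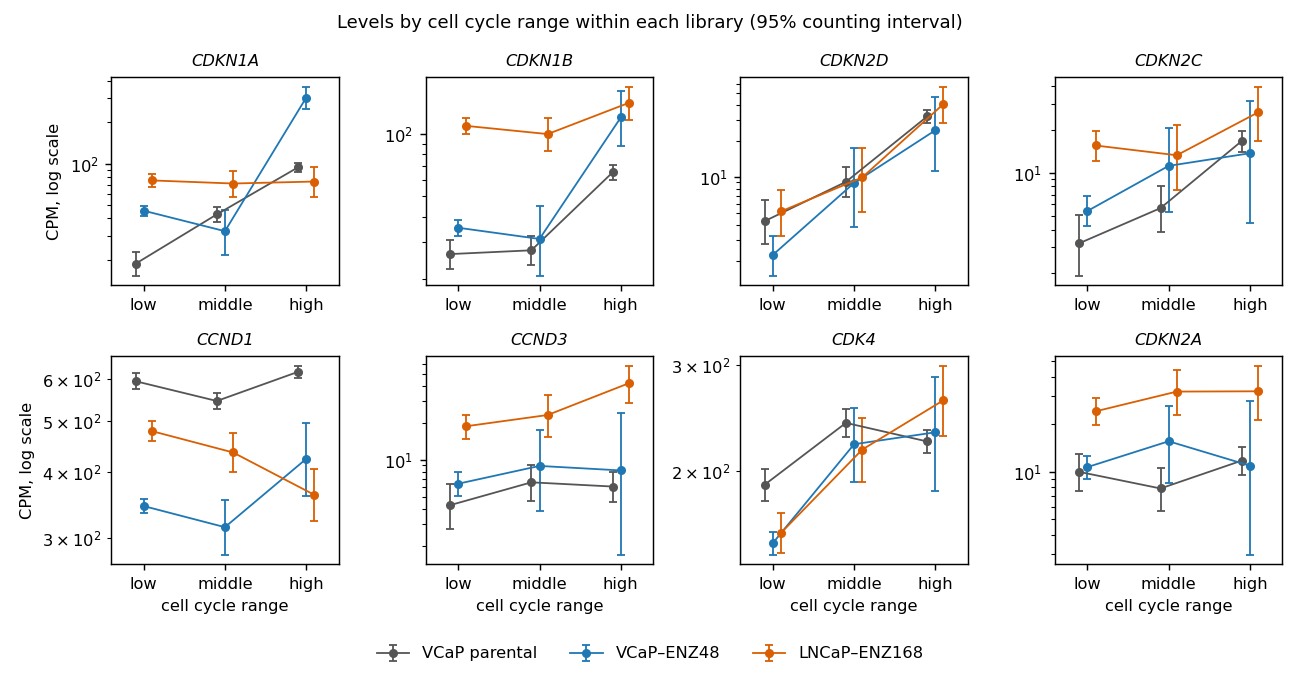
Levels in CPM (log axes, scaled per gene) in cells of the low, middle and high cell cycle range of VCaP parental (grey), VCaP–ENZ48 (blue) and LNCaP–ENZ168 (orange), with 95% counting intervals. CDKN2D increases from low to high in all 3 libraries, whereas CDKN1A increases from 18.7 to 94.4 CPM in VCaP parental and stays between 71.9 and 75.7 CPM in LNCaP–ENZ168. The high range of VCaP–ENZ48 holds 18 cells, and in that of LNCaP–ENZ168 3 of 103 cells hold 38.7% of the CDKN1A UMIs.

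Promoters are shown since cell cycle genes are commonly controlled through short promoter elements. RefSeq windows on GRCh38.p14 were given for 7 of the 10 members, and CDKN1C, CCND1 and CCND2 had none. The members with more than 1 window (CDKN2A, CDKN2C and CCND3) are not printed. Printed are the 250 bases before the RefSeq start, 5′ to 3′ on the gene's strand. The genes are CDKN2D (chr19:10568980-10569229, minus strand), CDKN1B (chr12:12717118-12717367, plus strand), CDKN1A (chr6:36678464-36678713, plus strand) and CDK4 (chr12:57752311-57752560, minus strand). The Gencode spans given above reach upstream of these RefSeq starts. The CDKN1B, CDKN1A and CDK4 windows lie inside those spans, and the CDKN2D window overlaps its span in part. Capitals mark the letters CCAAT or their reverse complement, a promoter element known by those letters, and the E-box CACGTG, which reads the same on both strands.
CDKN2D: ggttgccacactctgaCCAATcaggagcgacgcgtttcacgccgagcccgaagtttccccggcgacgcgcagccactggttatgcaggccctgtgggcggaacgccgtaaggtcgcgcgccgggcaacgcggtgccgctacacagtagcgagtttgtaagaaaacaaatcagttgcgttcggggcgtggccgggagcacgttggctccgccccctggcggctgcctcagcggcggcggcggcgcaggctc
CDKN1B: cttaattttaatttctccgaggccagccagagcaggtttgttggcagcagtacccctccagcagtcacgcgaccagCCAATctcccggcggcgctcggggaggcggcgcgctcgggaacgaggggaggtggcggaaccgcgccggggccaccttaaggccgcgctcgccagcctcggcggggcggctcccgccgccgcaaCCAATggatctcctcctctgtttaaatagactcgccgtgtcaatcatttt
CDKN1A: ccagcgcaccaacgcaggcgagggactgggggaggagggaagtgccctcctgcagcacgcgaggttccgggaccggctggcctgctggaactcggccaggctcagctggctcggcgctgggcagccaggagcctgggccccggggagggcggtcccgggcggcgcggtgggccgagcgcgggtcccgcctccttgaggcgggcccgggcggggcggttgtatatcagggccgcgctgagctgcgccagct
CDK4: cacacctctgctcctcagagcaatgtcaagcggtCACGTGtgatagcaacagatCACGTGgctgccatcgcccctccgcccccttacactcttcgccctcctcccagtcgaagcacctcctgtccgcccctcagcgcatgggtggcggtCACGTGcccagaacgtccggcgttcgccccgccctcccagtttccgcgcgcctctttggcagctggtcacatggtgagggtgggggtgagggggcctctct
CCAAT was present once in the CDKN2D window, 234 bases before the start, and in the CDKN1B window 174 and 50 bases before it, against 32.01% of 35116 such windows of all genes. CACGTG was present in the CDK4 window 216, 196 and 101 bases before the start, against 6.34% of all windows. The E2F letters TTTCCCGC, TTTCGCGC, TTTGCCGC and TTTGGCGC and the cell cycle element letters TTTGAA, searched on both strands, were in none of the 12 windows of the members, against 2.79% and 13.3% of all windows. Matches are descriptions of letters and not binding sites.

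The VCaP comparison was then repeated within the ranges, which did not fully match the cells for cycling. The median of cell cycle UMIs was 18 in VCaP parental and 13 in VCaP–ENZ48 in the middle range, and 49 and 38.5 in the high range. In the low range the proliferation marker MKI67 stood at 31.4 CPM in VCaP parental and 4.93 CPM in VCaP–ENZ48. CCND1 was lower in VCaP–ENZ48 in every range, with log2 ratios of -0.78 (-0.85 to -0.72) in the low range, -0.79 (-0.98 to -0.62) in the middle range and -0.55 (-0.79 to -0.32) in the high range. The whole library had -0.78. The high range of VCaP–ENZ48 gave 155 CCND1 UMIs, 47.1% of them in 3 of 18 cells. CDKN2D, at -2.14 in the whole library, had -0.71 (-1.77 to -0.094) in the low range, -0.028 (-1.32 to 1.06) in the middle range and -0.37 (-1.53 to 0.56) in the high range. The share of cells in the high range went from 41.2% to 1.96% at the same time. CDKN1A, at -0.18 in the whole library, had 1.24 (0.98 to 1.60) in the low range, from 18.7 CPM in VCaP parental to 45.6 CPM in VCaP–ENZ48, and 1.19 (0.93 to 1.55) among cells called G1.

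The low range difference of CDKN1A rested on 105 UMIs in 312 VCaP parental cells and 592 UMIs in 850 VCaP–ENZ48 cells. The 3 cells with the most UMIs held 12.4% and 10.5% of them. At equal depth the share of low range cells with a CDKN1A UMI was 3.75% and 7.10% averaged over all thinnings. In the single thinning used for the ranges it was 5.13% (2.96 to 8.19) and 7.06% (5.43 to 8.99), with overlapping intervals. Low range cells had a median of 6 cell cycle UMIs in VCaP parental and 4 in VCaP–ENZ48, and among cells with 3 to 6 such UMIs, a band chosen after seeing the data, the log2 ratio was 1.19. In the middle range the ratio was -0.39 (-1.02 to 0.15), and in the high range it was 1.67 (1.38 to 1.97) on the 18 cells described above.

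CDKN1B had a log2 ratio of 0.41 (0.15 to 0.70) in the low range, against -0.22 in the whole library. Its ratio was 0.18 (-0.46 to 0.77) in the middle range and 0.87 (0.40 to 1.32) in the high range. The high range of VCaP–ENZ48 gave 44 CDKN1B UMIs, 43.2% of them in 3 of 18 cells. CDK4 had -0.32 (-0.43 to -0.21) in the low range, -0.12 (-0.34 to 0.098) in the middle range and 0.051 (-0.28 to 0.36) in the high range. The low range intervals of CDKN1C, CDKN2A, CDKN2C and CCND3 held 0. The median of all genes within the ranges lay between -0.079 and 0.040, so that centring moved no ratio by more than that.

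**Figure D3:**
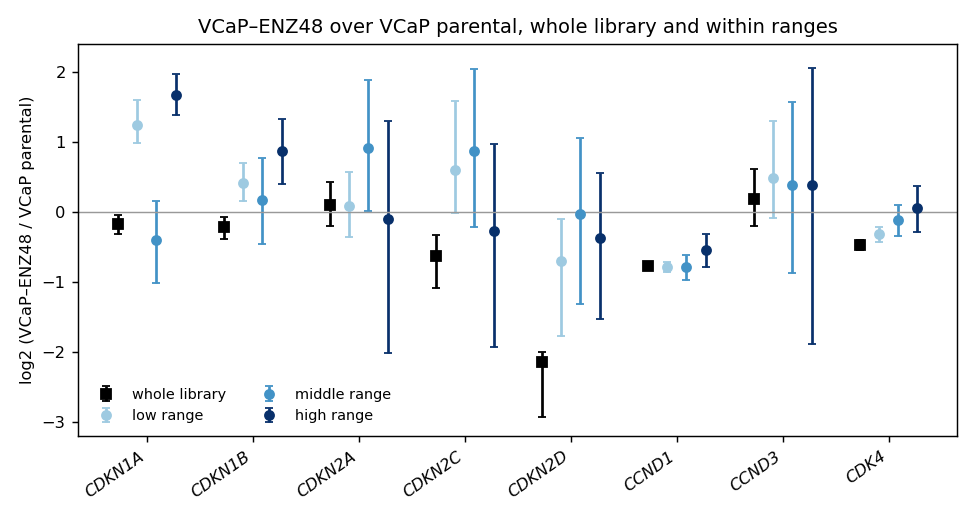
Log2 ratio of VCaP–ENZ48 over VCaP parental for 8 genes in the whole library (black squares) and within the low, middle and high cell cycle range (light to dark blue circles), with 95% counting intervals of the ratio of counts. CCND1 lies between -0.79 and -0.55 in all of them, CDKN2D is at -2.14 in the whole library and at -0.71 in the low range, and CDKN1A is at -0.18 and 1.24.

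The members also differed in how evenly they were spread over cells. At full depth CDKN1A had a UMI in 43.3% of VCaP parental, 29.5% of VCaP–ENZ48 and 24.4% of LNCaP–ENZ168 cells, whereas a level equal in all cells would have given 64.7%, 45.9% and 37.0% at the same depths. The 10% of cells with the most CDKN1A UMIs held 56.1%, 70.6% and 71.2% of them, up to 28 UMIs in a cell. For CDKN1B the observed shares were 49.5%, 34.1% and 48.5% against 54.9%, 37.5% and 48.9%. Thinned to 2000 UMIs, the variance of CDKN1A over its mean was 1.22, 1.47 and 1.61, and that of CDKN1B 0.994, 1.06 and 1.01, where 1 is the value for pure counting noise. CCND1 had a UMI in 99.4%, 85.9% and 87.8% of cells at full depth and in 66.2%, 48.7% and 57.7% after thinning. CDKN2D had a UMI in 24.7% of VCaP parental cells against an equal level share of 28.5%. The equal level shares and the grouping of cells by CDKN1A below were added after seeing the data.

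**Figure D4:**
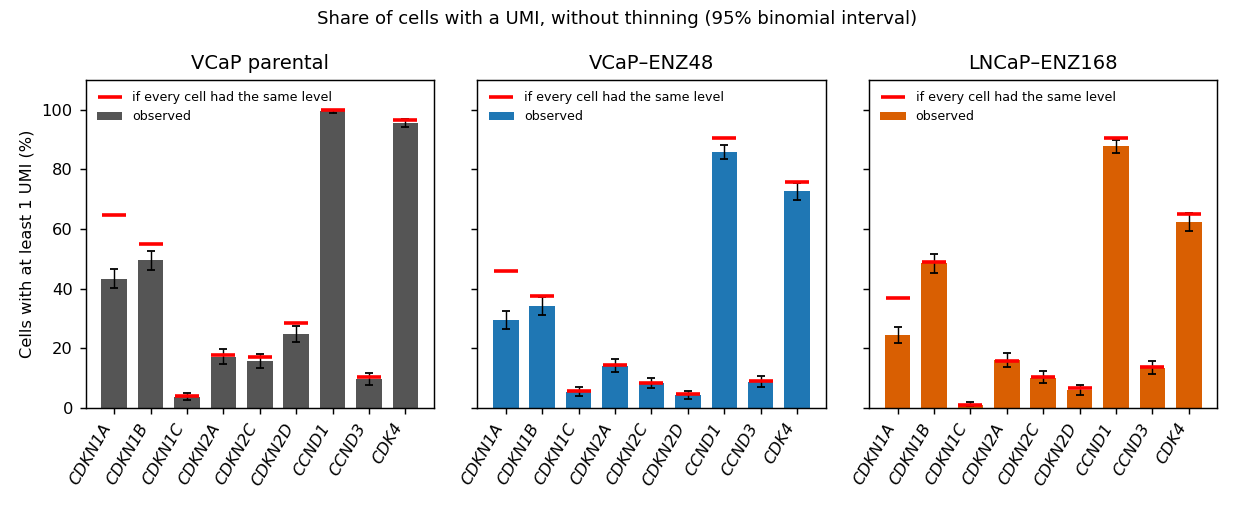
Share of cells with at least 1 UMI of each gene without thinning, in 3 panels for the libraries, with 95% binomial intervals. Red dashes give the share if every cell had the same level at its own depth. CDKN1A falls short in each library, at 43.3%, 29.5% and 24.4% against 64.7%, 45.9% and 37.0%.

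Since p53 is a known regulator of CDKN1A, 24 other p53 target genes were summed in cells with and without a CDKN1A UMI among 2000. In LNCaP–ENZ168 the sum was 2725 CPM (2510 to 2953) in 109 cells with CDKN1A and 1649 CPM (1588 to 1711) in 834 cells without, a log2 ratio of 0.72 (0.59 to 0.85). Much of this was GDF15, a secreted stress cytokine, at 1174 against 529 CPM, and without it the ratio was 0.47 (0.30 to 0.64). MDM2, which encodes the ligase that degrades p53, stood at 220 against 104 CPM in the same cells, a log2 ratio of 1.08 (0.59 to 1.55). In VCaP parental MDM2 had a ratio of 0.62 (-0.024 to 1.21), and in VCaP–ENZ48 it ran the other way, at 35.7 against 53.7 CPM (-0.59, -2.25 to 0.69), with both intervals holding 0. Among the LNCaP–ENZ168 cells, 8 had 3 or more CDKN1A UMIs. In these 8 the sum of the 24 genes was 6312 CPM (5142 to 7670), of which GDF15 gave 3625 CPM. In VCaP–ENZ48 the ratio was 0.34 (0.086 to 0.58), and in VCaP parental it was 0.21 (-0.037 to 0.46). The median of cell cycle UMIs was 7 in both groups of LNCaP–ENZ168 cells, whereas in VCaP parental it was 36 in cells with CDKN1A and 20 in those without. The difference between libraries in these ratios was not tested.

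**Figure D5:**
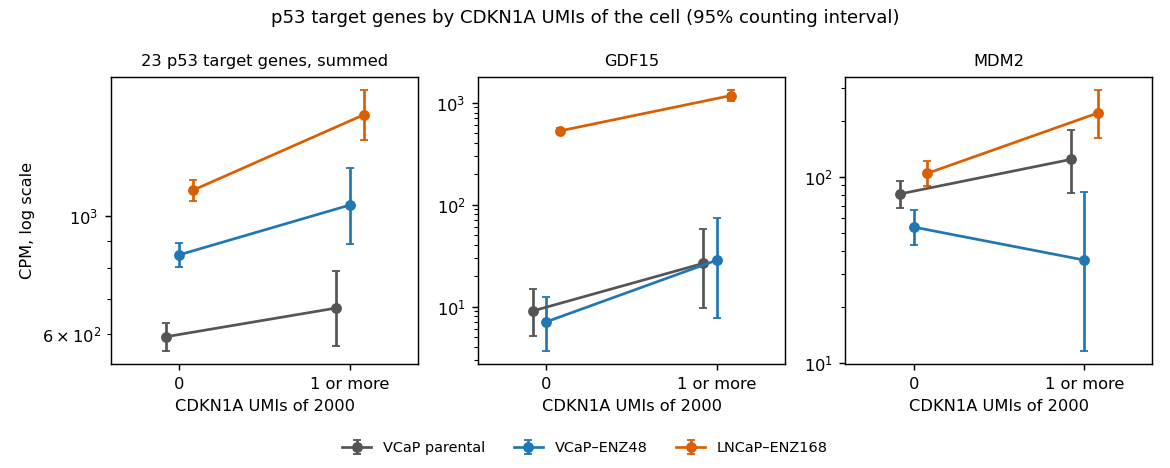
Summed level of 23 p53 target genes without GDF15, of GDF15 and of MDM2 (CPM, log axes) in cells with 0 and with 1 or more CDKN1A UMIs among 2000, for VCaP parental (grey), VCaP–ENZ48 (blue) and LNCaP–ENZ168 (orange), with 95% counting intervals. GDF15 is at 529 and 1174 CPM in LNCaP–ENZ168, and MDM2 at 104 and 220 CPM.

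Other genes of the pathway were read from 5 lists, whose counts stand against the background of 6.03% of all genes called lower and 8.97% called higher. Between the VCaP libraries, 8 of 8 tested later cyclins, CDKs and CDC25 phosphatases were at least 2-fold lower in VCaP–ENZ48, with a median centred log2 ratio of -2.97. CCNB1 went from 364.7 to 28.4 CPM, CDK1 from 340.4 to 31.3 CPM and CCNB2 from 134.6 to 17.2 CPM, each a G2M cyclin or its kinase. In the list of CDK6, RB family and E2F genes 0 of 4 tested were called, with E2F3 at -0.70, RBL2 at 0.12 and CDC37 at 0.32. CDK6 itself had 0.512 and 0.280 CPM in the VCaP libraries and 0.792 CPM in LNCaP–ENZ168. In the CDK-activating kinase 1 of 3 was called lower, its cyclin CCNH at -1.23, beside MNAT1 at -0.49 and CDK7 at -0.14. Among genes for turnover of p27, p21 and D-type cyclins 1 of 11 was called lower, a count near the background, namely CKS1B, the SKP2 cofactor, at -1.63, whereas SKP1 was at -0.015 and RBX1 at -0.90. Of 11 p53 targets tested 3 were called higher and 2 lower, with BTG2 at 1.92, TP53INP1 at 1.26 and PLK2 at 1.71 above, the death receptor FAS at -2.47 and AEN at -1.34 below, and CCNG1 at -0.52.

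In LNCaP–ENZ168 over VCaP–ENZ48, where 15.2% of all genes were called higher and 18.6% lower, 5 of 6 tested later cyclins and CDKs were called higher, with centred log2 ratios of 1.89 for CDK1, 1.77 for CCNB1, 1.62 for CCNA2, 1.38 for CDK2 and 1.16 for CCNB2. Of 17 tested p53 targets 9 were called higher and 2 lower, with a median of 1.01. GDF15 stood at 6.06, whereas TP53INP1 was at -1.93 and BTG2 at -3.16. In the RB and E2F list 2 of 5 were called higher and 1 lower, with the RB relatives RBL2 at 1.25 and RBL1 at 1.06, E2F3 at -1.28, and CDC37 at 0.69. Of the turnover genes 1 of 11 was called higher and 2 lower, counts at or below the background, with the kinase GSK3B at 1.49, SKP2, which marks p27 for degradation, at -1.30 and CKS1B at -2.15, whereas SKP1 was at -0.43, RBX1 at -0.55 and CUL1 at 0.095. Of the CDK-activating kinase, CCNH was called higher at 1.19, and MNAT1 (-0.21) and CDK7 (-0.54) were not called.

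Across the 9 sums of cells formed by 3 libraries and 3 ranges, the genes whose log2 levels ran closest to a member were described for the 3 most abundant ones, among 3250 genes of at least 50 CPM. CDK4 ran closest to MCM3 (Pearson r = 0.98) and MCM7 (0.97), subunits of the replicative helicase, and to FAM111B (0.97). CCND1 ran closest to NDUFA4 (0.97), ZNF326 (0.95) and EIF1AY (0.93), and CDKN1B to PPP2R5C (0.98), CEP70 (0.98) and DCAF7 (0.97). These sums share libraries and cells of 2 lines, and the correlations are descriptions. MCM7 is itself in the S phase list by which the cells were sorted into the ranges, so its course over the sums is partly set by that sorting.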

How the data were processed

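Single-cell RNA was measured by Drop-seq in VCaP parental, VCaP–ENZ48 and LNCaP–ENZ168, as a single library of every kind. Reads had been mapped by the authors with STAR (GRCh38, Gencode 33) and tallied with the Drop-seq tools and Picard at default settings, where 1000 cells were expected in each sample. What they deposited is an unnormalised UMI count for each gene and barcode. Genes without a row in 1 of the tables entered with a count of 0.

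Cells were kept from 300 genes and 500 UMIs upward and up to a mitochondrial share of 25%. Doublets were not identified, and barcodes deeper than 3 medians were dropped in an alternative. UMIs were summed per library and scaled to 1000000 (CPM). Ratios are log2 of CPM + 1, centred where stated on the median over all genes that averaged 10 CPM or more, and a gene was called at least 2-fold away from it. Intervals are exact Poisson, conditional binomial and Clopper-Pearson intervals at 95%, and the limit for a count of 0 is 3 counts. The intervals of ratios carry no pseudocount. UMI counts of unequally expressed genes such as CDKN1A vary more between cells than these intervals allow for. Cells were thinned to 2000 UMIs, which left out 0, 30 and 1 cells. Phases were called by CellCycleScoring of Seurat 5.3.0 in R 4.3.3, whose S and G2M lists were used, and TMM factors came from edgeR 4.0.16. Everything else was computed in Python 3.11.15 (pandas 2.3.3, numpy 2.4.6, scipy 1.17.1) and tested on simulated data.

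All members were named. From the other lists the 3 genes of highest mean CPM per list and comparison were named with counts and medians, as were the 3 genes closest to each of the 3 most abundant members. GDF15, MDM2, CDK6 and the genes behind counts of 5 or fewer were named in addition after their values were seen. The members and lists were chosen with earlier results of these data known. Coordinates are from Gencode 44 on GRCh38. Alternatives changed the cell filters, barcodes, thinning, scaling, centring, pseudocount and minimum.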

Additional observations from a re-analysis of the deposited data

How the results depend on the processing

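The 3 libraries are single ones, so counting error is the only error given, and depth limits CDKN1C, CDKN2C and CCND3 in VCaP and every member in the 18 high range cells of VCaP–ENZ48. No paired analysis was possible because no group holds more than 1 library. Leaving out a replicate was not possible for the same reason. Summing barcodes 1 base apart was not run as a separate calculation. It was entered with the unchanged main values, since merging kept barcodes leaves a library sum as it is. Its effect on which barcodes pass the cell filter was not tested.

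The single member called lower between the VCaP libraries, CDKN2D, was called under every alternative except a minimum of 50 CPM, which leaves it untested and gives 0. In LNCaP–ENZ168 over VCaP–ENZ48 the number called higher went from 0 to 1 under TMM, median-of-ratios, totals without mitochondrial and ribosomal protein genes and a pseudocount of 0.1, to 2 with barcodes ending in a base or a minimum of 1 CPM, and to 4 without centring, and the minimum of 1 CPM also gave 1 lower. The members' median in that comparison was 0.26 under TMM, 0.25 under median-of-ratios, 1.21 without centring and -0.096 with a minimum of 50 CPM. In the VCaP comparison it was -0.44 with totals without mitochondrial and ribosomal protein genes. The sign turned for CDKN1B between the VCaP libraries with a minimum of 50 CPM (0.012) and without centring for CCND1 (0.40) and CDK4 (0.21) in LNCaP–ENZ168 over VCaP–ENZ48. Of all recalculated member ratios 235 stayed within the interval of the value reported, 32 moved past it and 3 turned sign. The 235 overstate the stability, since some settings could hardly move a centred ratio. They include 18 entered for summing barcodes 1 base apart, which only repeat the main values. A minimum of 1000 UMIs gave 18 more and changed no value. Another 18 each came from TMM, median-of-ratios and totals without mitochondrial and ribosomal protein genes, whose scaling is largely removed by centring.

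With barcodes ending in a base, which leaves 138, 127 and 739 cells, CDKN1A in the low range was at 1.84 between the VCaP libraries and CCND1 at -0.62. CCND1 made up 98.6% of D-type cyclin UMIs in VCaP–ENZ48, CDKN1A 46.7% and 50.9% and CDKN1B 28.2% and 28.5% of inhibitor UMIs in VCaP parental and VCaP–ENZ48. High over low log2 ratios were 3.16 for CDKN1A in VCaP parental, -0.52 for CDKN1A in LNCaP–ENZ168, and 1.70 for CDKN2D and -0.63 for CCND1 in VCaP–ENZ48, the last with the sign turned from 0.30. In VCaP–ENZ48 the CDKN1A ratio was also 2.13 when thinned to 1000 UMIs and 2.42 without barcodes above 3 times the median depth. The cause of these shifts was not tested. The share of cells with a CDKN1A UMI was 11.3%, 7.63% and 11.6% in VCaP parental, VCaP–ENZ48 and LNCaP–ENZ168. It was 4.81%, 4.96% and 5.93% when thinned to 1000 UMIs and 43.3%, 29.5% and 24.4% without thinning, both by construction. Another seed gave 8.12% in VCaP parental, and barcodes ending in a base gave 14.5% and 10.4% in the VCaP libraries. Averaged over all thinnings, an alternative chosen after seeing the data, it was 9.59%, 7.71% and 11.1%.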

Other observations

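After thinning to 2000 UMIs, cells with a UMI of at least 1 inhibitor made up 24.8% of VCaP parental (22.1 to 27.6), 18.3% of VCaP–ENZ48 (15.9 to 20.98) and 36.6% of LNCaP–ENZ168 (33.5 to 39.7). A D-type cyclin and an inhibitor were found together in 16.1%, 8.72% and 20.9% of cells. Cells with a UMI of none of the 9 genes made up 15.4%, 30.1% and 18.9%, the largest share being in VCaP–ENZ48. Only 3, 5 and 21 cells had UMIs of both CCND1 and CCND3. These shares come from 1 thinning and follow the levels of the genes.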
